A study of Saccharomyces cerevisiae with 3 samples.

Results

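The first 1132 positions of 25S, the RNA of the large ribosomal subunit, make up the 5′ portion of that rRNA, which was cut into 3 equal portions of its 3396 positions, and are 1132 of the 6858 positions of the 35S gene. Members were chosen by coordinate alone, as positions 3252 to 4383 of the 35S gene. Occupancy by RNA polymerase I (Pol I) at each of these positions was measured by NET-seq in 3 replicates of *hmo1Δ* *Saccharomyces cerevisiae*, a strain that lacks the high mobility group protein Hmo1, and is set here beside the WT median column deposited by the authors. Cells of both strains were grown in YEPD at 30 °C and carried RPA135, a Pol I subunit, with an HA and a His tag, marked with TRP1. The *hmo1Δ* strain additionally carried the deletion marked with URA4. Each replicate was a culture of its own of that 1 strain. WT libraries belong to another series, so that WT appears as 1 column without n. Its single replicates were not used here, no position was tested against WT, and the strain cannot be told apart from the series its libraries belong to. Positions are counted below from the 5′ end of 25S, where position 1 is position 3252 of the 35S gene. The stretch lies on the minus strand of chromosome XII (assembly R64-1-1), from 463187 to 464318, inside RDN25-2 (460923 to 464318), the 25S gene within the 35S transcription unit RDN37-2 (460712 to 467569).

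Pol I transcribes the 35S gene as 1 precursor, from which the external and internal transcribed spacers are cut away to leave 18S, 5.8S and 25S. ITS2, the spacer before 25S, ends at the base before position 1. In NET-seq, Pol I is pulled down with the RNA it holds, and sequencing from the 3′ end of the RNA gives the base added last by the polymerase. A position with many ends is one where Pol I is found often, and such peaks are usually read as pauses. Hmo1 is an HMG-box protein that binds along the transcribed rDNA. According to the study's text, Pol I NET-seq libraries also hold mature rRNA. Its share in the 25S signal was not measured here, and an end in 25S may come from a nascent or a mature molecule.

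The 41 bases around the positions on which the results below turn are shown here, as RNA written 5′ to 3′ with the position itself in capitals. The first set holds 5 positions with the highest occupancy in *hmo1Δ*, all ending in adenine.
Position 1098: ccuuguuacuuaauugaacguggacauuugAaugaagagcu
Position 372: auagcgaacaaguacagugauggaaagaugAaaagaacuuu
Position 709: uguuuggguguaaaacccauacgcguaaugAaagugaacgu
Position 238: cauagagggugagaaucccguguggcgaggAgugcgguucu
Position 477: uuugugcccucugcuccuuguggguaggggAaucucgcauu
The next set holds positions where *hmo1Δ* was well above WT in RPM or in fold.
Position 338: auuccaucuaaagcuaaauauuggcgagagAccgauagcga
Position 137: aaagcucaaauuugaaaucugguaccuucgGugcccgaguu
Position 660: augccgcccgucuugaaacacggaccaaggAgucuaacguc
Position 866: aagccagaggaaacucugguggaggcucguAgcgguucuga
Position 20: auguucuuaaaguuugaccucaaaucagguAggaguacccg
Position 849: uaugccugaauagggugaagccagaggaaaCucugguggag
The last set holds positions where *hmo1Δ* was furthest below WT.
Position 1022: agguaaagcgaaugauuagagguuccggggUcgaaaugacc
Position 130: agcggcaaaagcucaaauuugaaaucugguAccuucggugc
Position 1125: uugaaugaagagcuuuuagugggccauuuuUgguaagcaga
Position 996: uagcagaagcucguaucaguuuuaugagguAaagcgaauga
Position 191: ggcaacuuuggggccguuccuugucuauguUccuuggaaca

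Depth was sufficient to read single positions. The step between the deposited values gave 679019, 369765 and 524799 reads in the 5′ portion of 25S for replicates 1, 2 and 3, which is 18.3%, 18.6% and 18.7% of the reads of the 35S gene. The median position held 458, 244.5 and 344.5 reads, for counting errors of 4.67%, 6.40% and 5.39%, and the lowest held 34, 12 and 20 reads, so no position was empty. These errors cover counting only. Rank order over the 1132 positions was close to the same in the 3 replicates (Spearman coefficients of 0.970, 0.984 and 0.967), and the coefficient with WT was 0.850 ± 0.038 (SD, n = 3), with values of 0.867, 0.807 and 0.877. The median coefficient of variation of a position over the *hmo1Δ* replicates was 10.2%, and the median of the authors' coefficient over the WT replicates was 9.57%.

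The amount of Pol I over the whole 5′ portion barely differed between strains, while its distribution did. Summed occupancy was 18.5% ± 0.179 (SD, n = 3) of that of the gene in *hmo1Δ* and 18.05% in WT. The log2 ratio of *hmo1Δ* to WT was 0.03, 0.05 and 0.05 in replicates 1, 2 and 3, a mean of 0.04 ± 0.01. In the middle portion of 25S the mean ratio was 0.05 ± 0.02, and in the 3′ portion it was −0.04 ± 0.04. The 5′ portion exceeded the 3′ portion by 0.08 ± 0.04 in 3 of 3 replicates (exact 2-sided sign-flip permutation test, p = 0.25, the smallest that 3 replicates allow), and differed from the middle portion by −0.0068 ± 0.02 (p = 0.75 by the same exact test). These ratios depend on the RPM scale. Scaled to the summed spacers in place of the gene, a choice made after the values were seen, every position of *hmo1Δ* moved by −0.54 on the log2 scale and the summed ratio turned to −0.50 ± 0.05. Statements on higher and lower occupancy below are relative to the total over the gene.

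At single positions, 465 of 1132 (41.1%) had all 3 replicates above the WT median, against 44.2% over the gene. Another 435 (38.4%) had all 3 below, against 37.2% over the gene, and the replicates lay on both sides of WT at the other 232. Scaled to the spacers, 186 were above and 825 below, and the shares over the gene under that scaling were not computed. When the replicates had also to clear 1 coefficient of variation of the WT replicates, 369 were above (36.4% of positions of the gene pass this rule) and 319 below (27.9% over the gene). All 3 replicates were at 1.5 times WT or more at 169 positions (14.9%), against 21.0% over the gene, and at WT/1.5 or less at 50 positions (4.42%), against 7.45% over the gene. The excess reached 2 times at 78 positions (6.89%), against 12.5% over the gene, and occupancy was at WT/2 or less at 1 position, against 1.72% over the gene. Counted in each replicate alone, 19.9% ± 2.14 of positions were at 1.5 times WT or more, a difference of −8.21 ± 0.872 percentage points from the rest of the gene, negative in 3 of 3 replicates (exact 2-sided sign-flip permutation test, p = 0.25, the smallest possible).

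**Figure D1:**
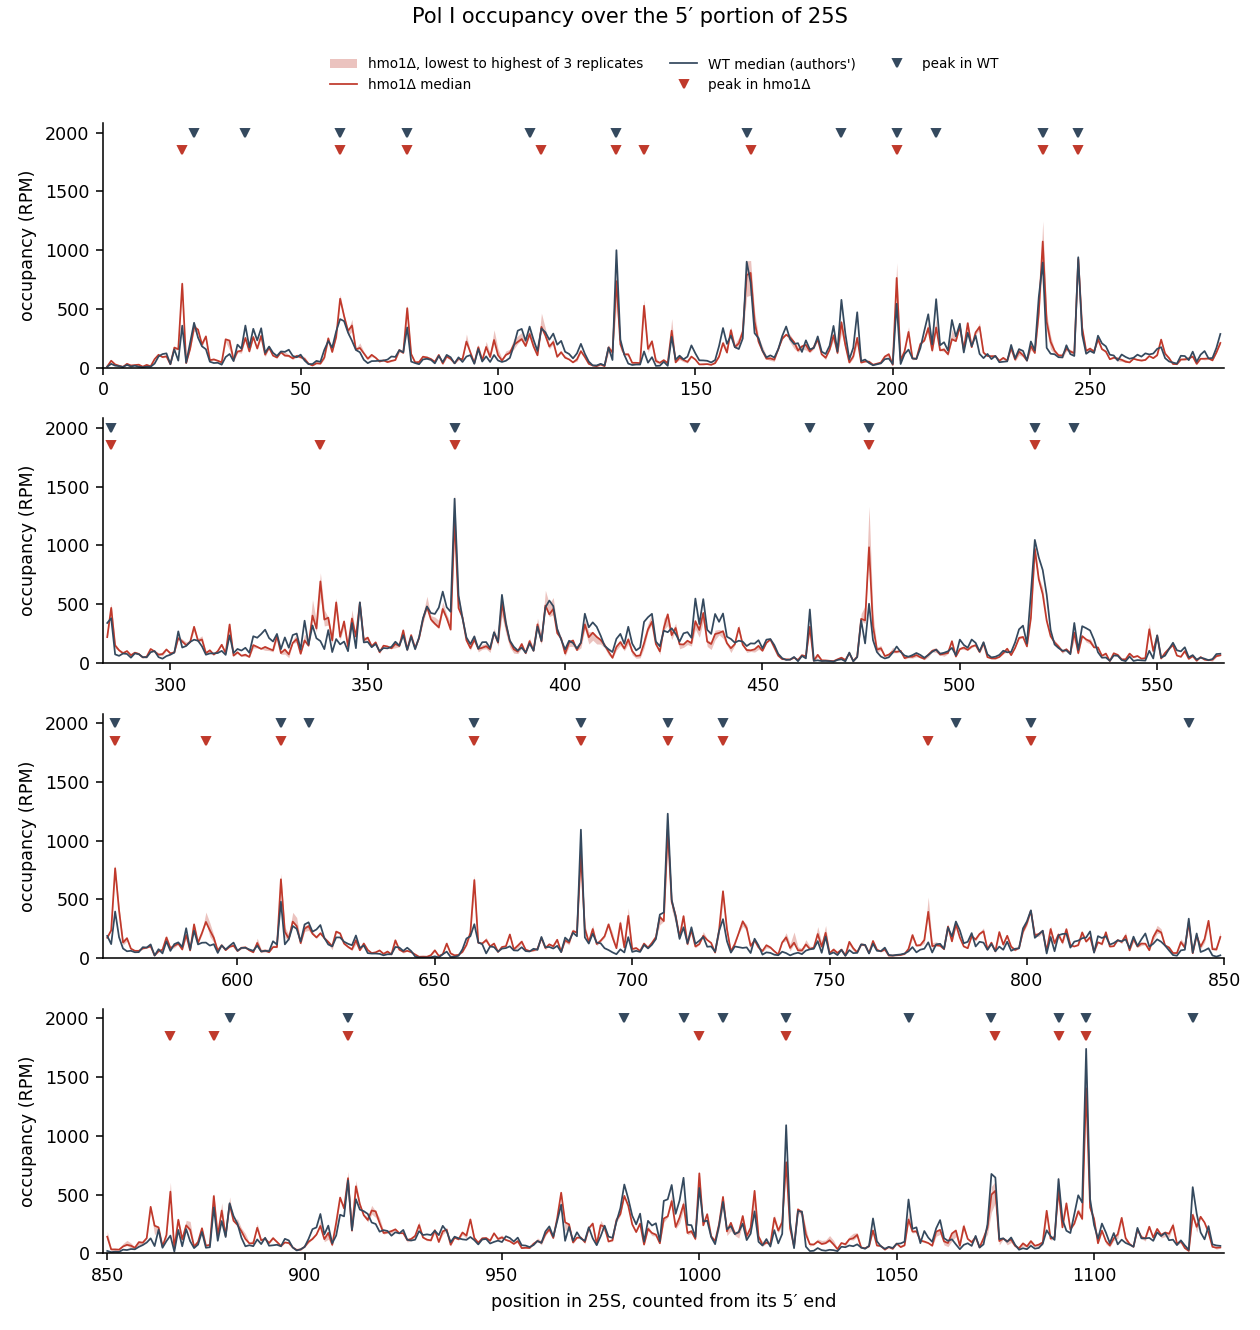
Pol I occupancy (y axis, RPM) at each position of the 5′ portion of 25S (x axis, positions from the 5′ end of 25S, in 4 panels), with the median and the range of 3 *hmo1Δ* replicates in red, the authors' WT median in dark blue, and triangles at called peaks. The same few spikes tower over both profiles, led by position 1098 at 1404 RPM in *hmo1Δ* and 1739 RPM in WT, while the red triangle at position 338 has no WT partner.

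Peaks were called where a position was the highest of its 5 neighbours on each side and at least 3 times the median of the 50 positions on each side and itself, in the *hmo1Δ* median and in every replicate. By this rule *hmo1Δ* had 32 peaks (2.83% of positions) and WT 40 (3.53%), of which 21 sat on the same base, 65.6% of the *hmo1Δ* list and 52.5% of the WT list. In the rest of the gene there were likewise fewer in *hmo1Δ*, with 169 peaks and 233 in WT over 5626 positions. The number on the same base is not given for the rest of the gene. WT had no replicates to pass, which makes its rule the easier one: a single *hmo1Δ* replicate gave 36, 44 and 41 peaks. Pairs of *hmo1Δ* replicates shared 77.3% to 94.4% of their lists. The 32 peaks held 12.4% ± 0.537 of the occupancy in *hmo1Δ*, and the 40 WT peaks held 13.9% of that in WT. The median distance from one peak to the next was 34 bases in *hmo1Δ* and 24 bases in WT, whose list is the longer one under its easier rule.

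The tallest peaks were common to both strains. Position 1098 was the highest in every *hmo1Δ* replicate, at 1393, 1404 and 1645 RPM in replicates 1, 2 and 3, and in the WT median, at 1739 RPM. Second came position 372 with 1088, 1238 and 1439 RPM, against 1397 RPM in WT, so that its replicates lay on both sides of WT. Position 709 gave 951, 1095 and 1177 RPM against 1229 RPM, below WT in all replicates. Of the 6 leading peaks, 2 stood above WT in all replicates. Position 238 reached 911, 1248 and 1073 RPM, a small excess over the 895 RPM of WT, and position 477 reached 984, 1332 and 981 RPM, near double the 504 RPM of WT (1.95-fold in the medians). Position 519, with 878, 970 and 1014 RPM, was again slightly below WT at 1047 RPM. All 6 end in adenine, and in the 5 of them shown above the base before it is a guanine. The other positions among the 10 highest of *hmo1Δ* were 247, a cytosine with 926, 968 and 909 RPM beside 940 RPM in WT, 687, a uracil with 884, 879 and 971 RPM against 1093 RPM, and the neighbours 163 and 164. In WT the call fell on cytosine 163 (902 RPM) and in *hmo1Δ* on adenine 164 (913, 617 and 807 RPM, against 724 RPM in WT), a shift of 1 base. At 163 the replicates had 909, 607 and 789 RPM, close to their values at 164, so the 2 bases can hardly be ranked in *hmo1Δ*.

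Of the 11 peaks called in *hmo1Δ* alone, several had a WT peak within 4 bases (positions 20, 111, 164, 877, 1000 and 1075), and others lay where WT had none that close. Position 338 is the clearest, with 560, 767 and 694 RPM in *hmo1Δ* and 186 RPM in WT. There *hmo1Δ* stood 4.49 ± 0.905 times above its local median and WT 1.15 times. Positions 137, 592, 775 and 866 were alike in kind, at 1.14, 1.39, 1.51 and 1.42 times the local median in WT. The reverse case, a WT peak without an *hmo1Δ* peak on the same base, occurred at 19 positions. Here too several (positions 23, 108, 163, 881, 996 and 1074) had an *hmo1Δ* peak within 4 bases. Position 529 passed the rule in the *hmo1Δ* median and in 1 replicate, and positions 981 and 1006 passed it in 2 replicates. At position 211, for example, *hmo1Δ* had 342, 326 and 415 RPM against 583 RPM in WT, and stood 2.47 ± 0.396 times above its local median where WT stood 3.99 times.

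Of the 8 positions furthest above WT in RPM, 7 were adenines. After position 338 and position 477 came position 137, the only guanine among the 32 *hmo1Δ* peaks, with 490, 579 and 527 RPM against 139 RPM in WT (3.80-fold). Position 660 gave 590, 705 and 664 RPM against 289 RPM (2.30-fold), and position 866 gave 525, 605 and 523 RPM against 151 RPM (3.48-fold). Each replicate at these positions was more than 2 times the WT value. Position 569 had 728, 764 and 795 RPM against 396 RPM, and position 342, only 4 bases after position 338, had 436, 553 and 515 RPM against 203 RPM. Close to the start of the rRNA, position 20 had 715, 693 and 740 RPM against 358 RPM in WT, which peaked instead at position 23 (382 RPM in WT, 309, 346 and 384 RPM in *hmo1Δ*).

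The 8 positions furthest below WT in RPM were tall ones, at 472 RPM or more in WT. Most of these were adenines too (positions 1098, 130, 211, 996 and 522), and the others were uracils. After position 1098 came position 1022, a uracil, with 712, 791 and 775 RPM against 1090 RPM in WT. At position 130 the values were 736, 523 and 846 RPM against 1000 RPM, with the widest spread among the replicates of the 8. Positions 996 and 522 lay at 417, 371 and 460 RPM against 643 RPM, and at 360, 375 and 357 RPM against 581 RPM. Uracil 1125, the last of a run of uracils, had 352, 304 and 327 RPM against 563 RPM. Uracil 191 had 254, 204 and 266 RPM against 472 RPM (0.54-fold in the medians). In RPM these differences, 218 to 335, were smaller than those of the 8 positions above WT, 312 to 508.

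**Figure D2:**
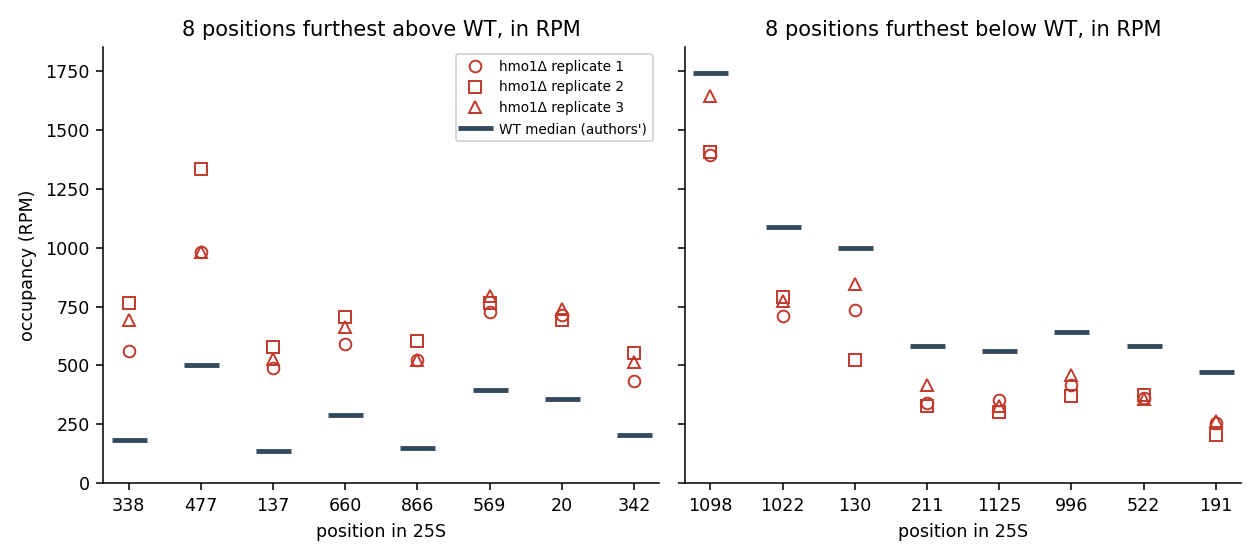
Occupancy (y axis, RPM) at the 8 positions furthest above WT and the 8 furthest below (x axis, position in 25S), with 1 symbol for each *hmo1Δ* replicate and a dark bar for the authors' WT median. At position 338 the replicates sit at 560 to 767 RPM over a WT bar at 186 RPM, and at position 1098 they sit at 1393 to 1645 RPM under a bar at 1739 RPM.

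By fold rather than RPM, the excesses were larger than the deficits. Among positions with at least 100 RPM in the higher strain, position 849 stood first, with 173.5, 223 and 180 RPM against 24.0 RPM in WT (7.50-fold), followed by its neighbour 850 with 141, 187 and 112 RPM against 20.3 RPM (6.95-fold). Positions 694, 739 and 697 were at 4.18, 4.16 and 3.99 times WT. In the other direction the largest fold was 2.11. It was at position 115, with 97.8, 92.7 and 91.8 RPM against 196 RPM in WT. The next 4 were 2 pairs of neighbours, 419 with 420 and 323 with 324, at 2.06-fold to 2.09-fold below WT. Reads at these 10 positions ranged from 85 to 1101 in a replicate.

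Neighbouring positions often differed from WT in the same direction. Positions with all replicates above WT formed 145 runs with a median length of 2, and those below formed 137 runs, also with a median of 2. Over the gene there were 856 and 796 such runs, with the same median length of 2. The longest runs are shown here with 10 bases on each side, the run itself in capitals, to let their base composition be read. They were picked by length after the values were seen.
Positions 844 to 880: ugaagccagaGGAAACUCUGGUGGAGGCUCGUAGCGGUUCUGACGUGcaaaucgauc
Positions 980 to 999: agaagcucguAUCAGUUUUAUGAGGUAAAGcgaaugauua
Positions 316 to 331: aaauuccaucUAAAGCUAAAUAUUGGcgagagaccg
From position 844 to 880 (chromosome XII, 463439 to 463475), all 3 replicates were above WT at 37 consecutive positions, with a mean of 159 ± 13.5 RPM in *hmo1Δ* and 87.7 RPM in WT (log2 ratio of 0.86 ± 0.12, n = 3). The ratio of medians at its positions ran from 1.08 to 7.50 with a median of 1.78, and 18 of the 37 were at 1.5 times WT or more in all replicates. Over the 35S gene only 2 runs above WT were this long, this one included, and the longest, of 47, was in ITS1. Guanine makes up 15 of the 37 bases and uracil 9. Other runs above WT varied in guanine. The 12 bases from 733 to 744 have 5 guanines and 1 uracil, while the 14 from 1027 to 1040 have 2 guanines and 4 uracils. The 11 bases from 692 to 702 have 1 guanine. The longest run below WT, positions 980 to 999, covered 20 positions at 254 ± 12.0 RPM against 342 RPM (log2 ratio of −0.43 ± 0.07), with 7 uracils, 7 adenines and 1 cytosine. Over the gene 5 runs below WT were at least this long, this one included, and the longest, of 35, was in 18S. Positions 316 to 331, with 5 uracils, 7 adenines and 1 cytosine, followed at 109 ± 9.57 RPM against 177 RPM (−0.71 ± 0.13). A run of 12 positions above WT begins 5 bases after its end, from 336 to 347, at 347 ± 39.1 RPM against 193 RPM (0.85 ± 0.17), which has 4 guanines and 1 uracil and contains positions 338 and 342.

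**Figure D3:**
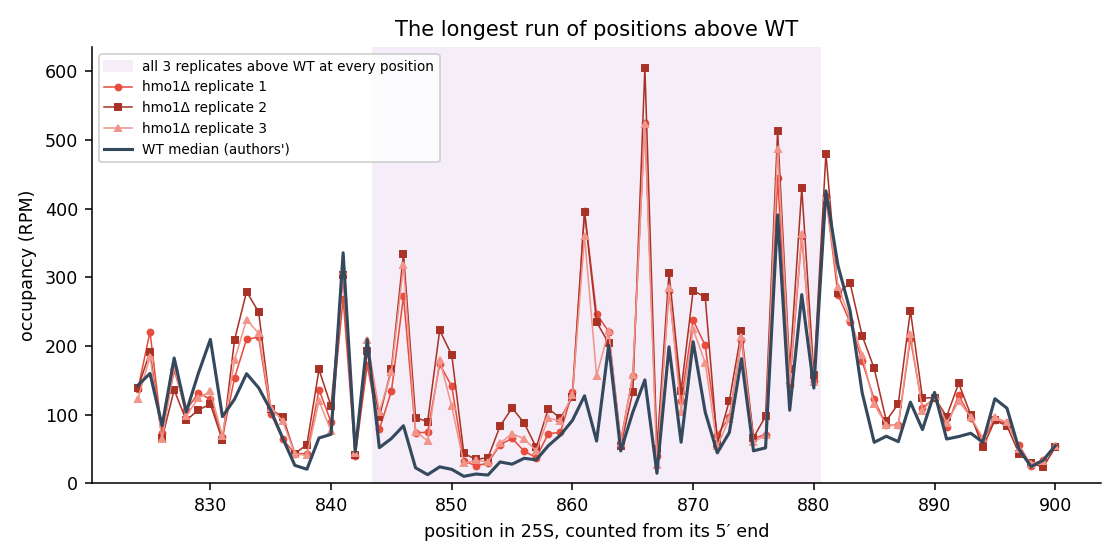
Occupancy (y axis, RPM) around the longest run of positions above WT (x axis, position in 25S), for 3 *hmo1Δ* replicates and the authors' WT median, with the run of 37 positions shaded. Between positions 846 and 850 the WT line lies at 12.6 to 83.9 RPM and the replicates at 61.9 to 335 RPM, and the tallest point of the run is position 866.

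In windows of 50 positions, those above and below WT were mixed up to position 550, and all windows from there to position 950 were above it. Of 23 windows (the last one of 32 positions), 14 were above WT in all replicates, against 47.4% of the windows of the gene, and 5 were below in all, against 35.8% over the gene. Windows 851–900, 651–700 and 551–600 were highest, with log2 ratios of 0.51 ± 0.10, 0.40 ± 0.04 and 0.30 ± 0.06 (n = 3). Without position 866 the first of these had 0.44 ± 0.10, and 40 of its 50 positions had all replicates above WT. Window 651–700 had 33 such positions and 0.34 ± 0.03 without position 660. Window 551–600 was more uneven, with 20 positions above and 20 below in all replicates, and position 569 alone made up 31.3% of its difference, leaving 0.23 ± 0.07 without it. Window 701–750 was level with window 551–600, at 0.30 ± 0.05. It had 35 positions above and 8 below in all replicates, and 0.28 ± 0.05 without position 723. All 8 windows from position 551 to 950 were above WT in every replicate, at 151 ± 5.49 RPM against 127 RPM, a log2 ratio of 0.25 ± 0.05, and 218 of their 400 positions were above WT in all replicates. The lowest windows were 401–450, 501–550 and 151–200, at −0.39 ± 0.18, −0.21 ± 0.01 and −0.19 ± 0.16. In the first of these 41 of 50 positions were below WT in all replicates, and replicate 2 (−0.61) lay well under replicates 1 and 3 (−0.29 and −0.29). Scaled to the spacers, the highest window turned to −0.032 ± 0.08 and the lowest moved to −0.94 ± 0.21.

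**Figure D4:**
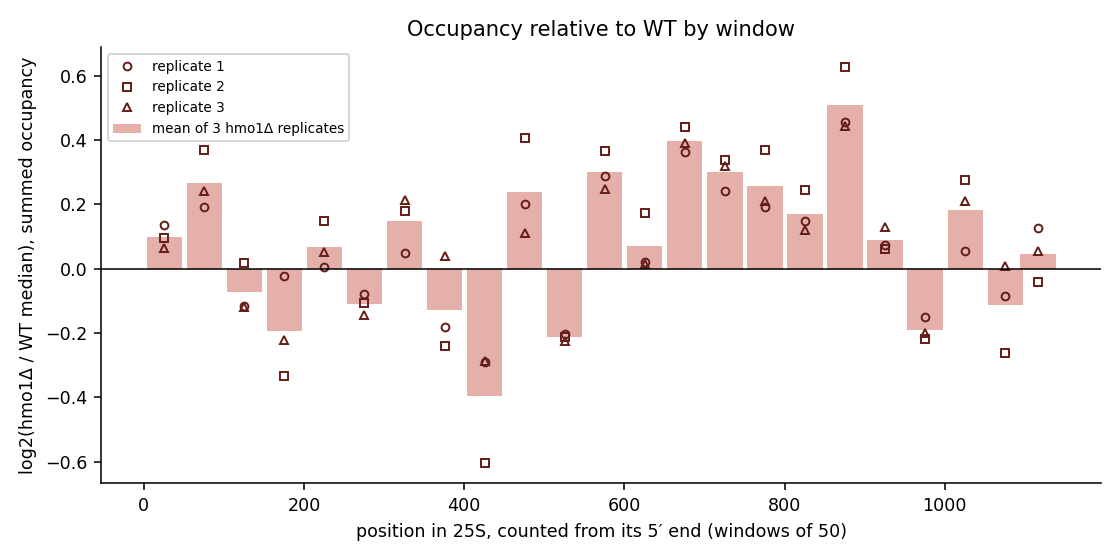
Log2 ratio of summed occupancy, *hmo1Δ* over the authors' WT median (y axis), in windows of 50 positions along the 5′ portion of 25S (x axis), with bars for the mean and symbols for each of 3 replicates. The 8 bars from position 551 to 950 are all above 0, with a maximum of 0.51 at 851–900, and the deepest bar is −0.39 at 401–450.

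The troughs, taken as the lowest windows of 25 positions, were partly the same in both strains. Positions 633 to 657, where 10 of 25 bases are cytosine, were the lowest in both, with 48.7 ± 3.34 RPM in *hmo1Δ* and 36.1 RPM in WT. The next troughs of WT were 733 to 757 at 54.3 RPM and 1027 to 1051 at 59.7 RPM. In *hmo1Δ* these windows, chosen as low in WT, stood higher, at 92.0, 114 and 85.2 RPM over 733 to 757, where 23 of 25 positions were above WT in all replicates, and at 82.5, 97.9 and 81.7 RPM over 1027 to 1051. Its own next troughs, 450 to 474 and 541 to 565, lay near WT (67.1 ± 2.52 against 71.5 RPM, and 74.7 ± 1.48 against 65.8 RPM).

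The range of occupancy over positions was narrower in *hmo1Δ* than in the WT median. The 90th percentile of positions was 7.26 ± 0.561 times the 10th in *hmo1Δ* and 9.17 times in WT. The SD over positions was 90.2% ± 4.22 of the mean, against 97.5% in WT. Split into 5 groups of near equal size by their level in WT, positions had a median log2 ratio of 0.52 ± 0.07 in the lowest group (up to 56.5 RPM), then 0.17 ± 0.08, −0.04 ± 0.02 and −0.11 ± 0.03, and −0.24 ± 0.05 in the highest group (from 229 RPM). When each *hmo1Δ* replicate was sorted by another, the lowest group lay between −0.09 and 0.16 and the highest between −0.11 and 0.05. The WT column is a median over libraries and a replicate is a single one, and the part of this sorting in the values was not tested.

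The base context differed between high and low positions of one strain, and between positions above and below WT. Adenine is 27.7% of the bases of the 5′ portion but ended 23 of the 32 *hmo1Δ* peaks (71.9%) and 26 of the 40 WT peaks (65.0%). Guanine, 29.1% of the bases, ended 1 *hmo1Δ* peak and 0 WT peaks, yet it was the base before the peak in 23 of the 32 and 24 of the 40. Over all positions, adenine-ending ones held 39.3% ± 0.920 of the occupancy in *hmo1Δ* and 39.3% in WT.

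The 3 letters GGA, searched on the transcribed strand and read as ending at the position, occurred at 27 positions of the 5′ portion (2.39%). They ended 12 of the 32 *hmo1Δ* peaks and 11 of the 40 WT peaks. They include positions 60, 77, 238, 477, 519, 569, 611, 660, 801 and 1091, which are peaks in both strains, and 592 and 775, which are peaks in *hmo1Δ* alone. Median occupancy at the 27 was 379 ± 24.3 RPM in *hmo1Δ* and 340 RPM in WT, and the median log2 ratio was 0.37 ± 0.11 (n = 3). All replicates were above WT at 16 of them, below at 5 and on both sides at 6, and 9 (33.3%) were at 1.5 times WT or more and 0 at WT/1.5 or less, where 14.9% and 4.42% of all positions of the 5′ portion were. Position 846, the GGA at the head of the longest run, had 272, 335 and 317 RPM against 83.9 RPM in WT. Scaled to the spacers, the median ratio turned to −0.17 ± 0.09, against a shift of −0.54 for every position. These letters were chosen after the values of 16 such triplets ending in adenine were seen. In the rest of the gene, which was not used to choose them, GGA ended 1.97% of 5626 positions, 33 of 169 *hmo1Δ* peaks (19.5%) and 22 of 233 WT peaks (9.44%), with a median log2 ratio of 0.33 ± 0.10. There 32 of 111 (28.8%) were at 1.5 times WT or more, against 22.1% of all positions in the rest of the gene. On the lower side 9 of 111 were at WT/1.5 or less, near the share of all positions there (8.02%). By contrast, UAA occurred at 23 positions of the 5′ portion, ended no peak in either strain, and had a median ratio of −0.25 ± 0.07. CAA, CGA and UCA likewise ended no peak there, and UUA (−0.33 ± 0.17) and UCA (−0.27 ± 0.04) had lower ratios. CCA, at 10 positions of the 5′ portion, had a median ratio of 0.42 ± 0.07, above that of GGA, and −0.08 ± 0.02 in the rest of the gene. In the rest of the gene UAA had a median ratio of −0.14 ± 0.03 and ended 2 WT peaks.

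Positions above and below WT also had unlike neighbours. In the 169 positions at 1.5 times WT or more, guanine was the base before in 38.5% and the base 2 before in 42.0%, against 12.0% and 12.0% in the 50 positions at WT/1.5 or less and 29.1% and 29.0% of all positions. Uracil went the other way, with 14.2% directly before against 42.0% and 25.6%. After the position, cytosine stood out. It was the next base at 52 of the 169 (30.8%) and at 3 of the 50, where 17.7% of all positions have it, and the base after that at 49 of the 169 (29.0%) and 4 of the 50. Single positions often went against these shares. Of the sequences shown above, positions 20 and 866, above WT, have a uracil directly before them, and position 1022, below WT, has a guanine before it and a cytosine after it.

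**Figure D5:**
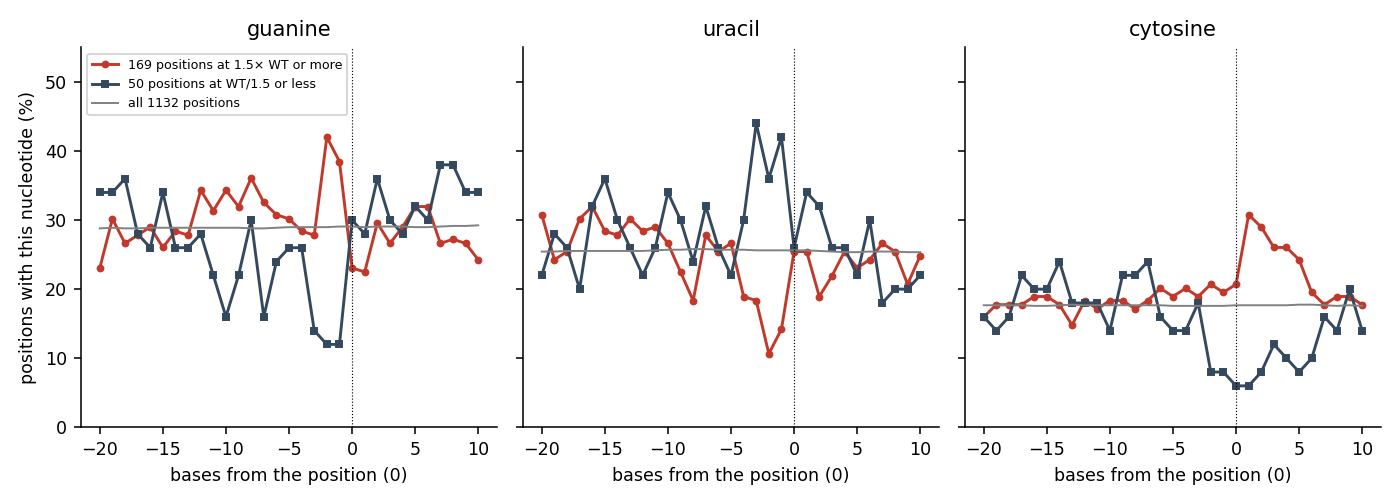
Percent of positions with guanine, uracil or cytosine (y axis) at each place from 20 bases before to 10 bases after the position (x axis, 0 is the position), for the 169 positions at 1.5 times WT or more (red), the 50 at WT/1.5 or less (dark blue) and all 1132 (grey). The sets part at 1 and 2 bases before, where guanine is at 38.5% and 42.0% in the red set and 12.0% in the dark blue, and at the next base for cytosine, at 30.8% in the red set and at 3 of the 50 positions of the dark blue.

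Described over all positions rather than the sets, the context was a gradient and a weak one. Positions after GG had a median log2 ratio of 0.25 ± 0.04 (n = 92, with 28 at 1.5 times WT or more and 0 at WT/1.5 or less), and positions after UU had −0.26 ± 0.10 (n = 80, with 3 and 8). In the rest of the gene positions after GG had 0.38 ± 0.09 (n = 412) and positions after UU −0.013 ± 0.04 (n = 545), where all positions had 0.06 ± 0.03. Within that rest, positions after UU had −0.067 ± 0.03 in the middle portion of 25S (n = 59). In the 3′ portion they had −0.066 ± 0.09 (n = 100). The deficit after UU was thus smaller in the other portions of 25S, with the same sign. Guanine before and cytosine after gave 0.32 ± 0.03 (n = 56), while uracil before and no cytosine in the next 4 bases gave −0.27 ± 0.08 (n = 155). Outside the 5′ portion these combined classes had 0.41 ± 0.08 (n = 286) and −0.08 ± 0.04 (n = 699). With positions split at the middle WT level, guanine before gave 0.52 ± 0.08 and uracil before 0.05 ± 0.05 in the lower part, and −0.03 ± 0.03 and −0.28 ± 0.04 in the upper part, so guanine before lay above uracil before in both. Positions with 2 cytosines after them did not keep their place, with 0.58 ± 0.07 (n = 34) in the lower part and −0.13 ± 0.06 (n = 14) in the upper, where all positions had −0.15 ± 0.04. Across the 1132 positions, the number of guanines in the 10 bases ending at the position had a Pearson coefficient of 0.184 with the log2 ratio, uracil −0.237, and cytosine in the next 4 bases 0.294. Neighbouring positions share most of their 10 bases and the libraries, so these describe the profile and carry no p.

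The border with ITS2 lies within the reach of this stretch. Over the first 10 positions of 25S occupancy was low in both strains, with 23.0 ± 1.19 RPM in *hmo1Δ* and 14.3 RPM in WT, a log2 ratio of 0.68 ± 0.08 (n = 3). The last 10 positions of ITS2 had 53.5 ± 3.64 RPM and 22.6 RPM, a ratio of 1.24 ± 0.10. Over positions 11 to 20, which end with the peak at position 20, the values were 148 ± 3.80 and 99.1 RPM, a ratio of 0.58 ± 0.04. All 3 stretches were above WT in every replicate, in decreasing order of ratio from the spacer into the rRNA.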

How the data were processed

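Pol I NET-seq was measured in 3 *hmo1Δ* replicates, grouped and numbered from the sample labels. The authors deduplicated reads by UMI, trimmed with cutadapt 3.4, used STAR 2.7.1a for alignment to R64-1-1 and obtained coverage with bedtools 2.28.0. The assignment of reads between rDNA copies is not given in the sources used here. The values deposited by the authors are RPM, reads scaled to 1000000 over the gene as far as position 6739, the T1 terminator. A score column deposited by the authors holds the coefficient of variation over the WT replicates. WT values are the authors' median. Their WT mean was left aside, as were 3 columns with WT replicates, which are samples of another series, and the authors' own difference, ratio and p-value per position.

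Reads were recovered from the step between values, which in replicate 1 left 2 positions of the stretch with values that were not whole. Sums, ratios and counts were computed per replicate and given as mean and SD. Classes of base context used log2(RPM + 1), so that folds of low positions are understated there. Regions were compared by an exact sign-flip permutation test over replicates. No count test was run, since the samples analysed form 1 group. The bases were read from the deposited table, and gene limits come from RefSeq.

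The positions named were the 10 highest in each strain, the 8 furthest above and the 8 furthest below WT in RPM and the 5 largest folds each way (higher median at least 100 RPM), among positions with all replicates on that side, with the 3 highest and 3 lowest windows of 50 and the 3 lowest windows of 25 in each strain. Other peaks, the runs and the base classes were chosen after their values were seen. The members and lists were chosen with earlier results of these data known. Alternatives were other scalings, thresholds, windows, pseudocounts and filters, and each replicate left out. Calculations used Python 3.11.15, numpy 2.4.6, pandas 2.3.3 and scipy 1.17.1, with figures from matplotlib 3.10.9, and were tested on simulated profiles.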

Additional observations from a re-analysis of the deposited data

How the results depend on the processing

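Of 83 alternative values for counts, sums and windows, 64 moved by no more than the replicate spread or 1.5 times a count. Scaling to the spacers, chosen after the values were seen, reversed 3: the summed log2 ratio became −0.50, the highest window −0.032 and the GGA median −0.17, with 186 positions above WT, 825 below and the lowest window at −0.94. Positions with all replicates above WT then made up 18.4% of those on 1 side, against 51.7% under RPM. A margin of 25% left 276 above and 176 below, and one of 1.5 times left 169 and 50, against 21.0% and 7.45% of positions over the gene. Shares over the gene were computed neither for the margin of 25% nor with 1 replicate left out. Peaks at 2 times the local median numbered 59 in *hmo1Δ*, 61 in WT and 33 in common, and at 5 times 14, 15 and 8. The highest window was 0.89 with 25 positions and 0.33 with 100, and the lowest −0.18 with 100. Leaving out 1 replicate gave summed ratios of 0.04 to 0.05, 493 to 522 positions above, 467 to 478 below, 33 to 36 peaks and a lowest window of −0.45 to −0.29. Of 210 alternatives for 35 named positions, 4 moved by more than the replicate SD, all with a pseudocount of 10 RPM. The sign changed at 2 positions whose replicates lay on both sides of WT, 164 (−0.024 without replicate 1) and 247 (0.011 without replicate 3). No paired analysis was possible because the series holds 1 group. WT replicates were not used and no difference at a position was tested, and at the shallowest positions counting error reached 17.1% to 28.9%.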

Other observations

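In replicate 1, 2 positions of the 5′ portion of 25S held values that are not whole reads. Position 35 came to 536.5 reads and position 1010 to 477.5 reads, while in replicates 2 and 3 all 1132 positions were whole.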
